A study of Mus musculus with 2 samples.

Results

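Among the immune cells of the mouse dorsal root ganglion (DRG), a small set of S100a8- and S100a9-rich cells carried transcripts of early granule and granulocyte genes. They were chosen by a rule on raw unique molecular identifiers (UMIs, each counting a captured transcript once): at least 5 UMIs summed over Fcnb, Elane, Prtn3, Ms4a3 and Cebpe, and at least 1% of the cell's UMIs from S100a8 and S100a9. The rule took 119 cells, or 4.46% of the 481, 772 and 1415 cells that the authors kept from male mouse 1, 2 and 3 (95% exact Clopper-Pearson interval 3.71 to 5.31%, which covers counting error only). They were compared with the 446 other cells in which S100a8 and S100a9 gave at least 5% of UMIs, called here other S100a8/S100a9-rich cells. Since both classes were drawn from the UMIs of the same cells, the values of the 7 genes in the rule are given as a description and were not tested.

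The cells were naive, wild-type (WT) CD45+DAPI- cells sorted from DRGs of perfused BALB/cAnNRj mice, 3 male and 3 female, after enzymatic digestion and myelin removal. The paper names the spinal levels, pooled cervical, thoracic and lumbar, for its flow cytometry. All were run in a single lane of the 10x droplet assay with 6 hashtags, barcoded antibodies added per animal so that each cell can be traced to its mouse. Every barcode of the authors' matrix was also in their larger matrix of both sexes, and all of them carried a male hashtag. The 1073 cells with a female hashtag, not used to write the rule, gave 25 rule cells and 107 other S100a8/S100a9-rich cells. The mice were 7 weeks old or older, with no age given per animal, and no treated group was compared. Ptprc, which encodes CD45, had a UMI in 87.4% of the rule cells, 90.4% of the other S100a8/S100a9-rich cells and 83.6% of all male cells. Its summed level was 129 CPM (UMIs scaled to a common total) in the rule cells, below 463 CPM in the other S100a8/S100a9-rich cells and 291 CPM in all male cells, and shares with a UMI are not at equal depth, as median UMIs were 18136, 5145 and 8283.5.

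Neutrophils arise in bone marrow through stages that are marked by the granule proteins they make. Primary granule proteases and myeloperoxidase are made early, secondary granule proteins such as lactoferrin and cathelicidin later, and gelatinase last, and cell division ends before the nucleus takes its mature shape. C/EBP epsilon, the product of Cebpe, is a transcription factor needed for secondary granule genes, Fcnb encodes ficolin B, a secreted lectin of early granulocytes, and Ms4a3 marks granulocyte and monocyte progenitors. Elane and Prtn3 encode the serine proteases neutrophil elastase and proteinase 3, and S100a8 and S100a9 the subunits of calprotectin, the main cytosolic protein of neutrophils.

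The label of primary granule genes held for a minority of the cells. Cebpe had a UMI in all 119 cells and reached 5 UMIs alone in 106 of them. It also had a UMI in 25.8% of the 446 other S100a8/S100a9-rich cells. In the 102 of these with Ltf, Camp and Ngp at 5% of UMIs or more, the share was 71.6%. Fcnb had a UMI in 76.5% of the 119 cells, Ms4a3 in 52.1%, Prtn3 in 26.9% and Elane in 19.3%. Elane and Prtn3 made up 65.9% of the UMIs of the 5 genes, but 99.6% of these lay in 19 cells with at least 5 UMIs of both together (3, 4 and 12 cells in mouse 1, 2 and 3), and 27 cells had no UMI of any of the 5 genes but Cebpe. The secondary granule genes Camp and Ngp, which the rule did not use, had a UMI in 94.96% and 98.3% of cells. The 119 cells are therefore called Cebpe/Fcnb cells, after the most widely detected genes of the rule, and the 19 cells the Elane/Prtn3 subset.

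**Figure D1:**
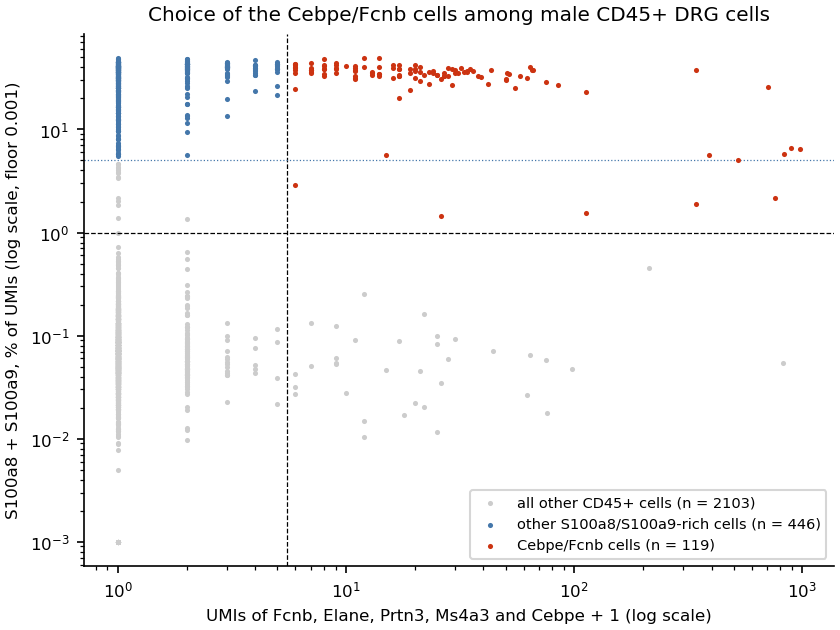
Each point is a male CD45+ cell, placed by its UMIs of the 5 genes (plus 1, log scale) and the share of S100a8 and S100a9 in its UMIs (log scale). Dashed lines mark the rule for the 119 Cebpe/Fcnb cells (red) and the dotted line the limit for the 446 other cells (blue); most red points lie at S100a8 and S100a9 shares near the median of 35.7%, and points far to the right mostly lie below 10%.

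In the mouse genome (GRCm38), Elane (chr10:79886247-79888215) and Prtn3 (chr10:79874476-79883174) are neighbors on the plus strand of chromosome 10, Fcnb lies at chr2:28076378-28084885, Ms4a3 at chr19:11629496-11640851 and Cebpe at chr14:54710360-54712174. The promoters of 3 of them are shown, with that of Ngp, a secondary granule gene detected in 98.3% of the cells. Each is given as the 250 bases before the start that RefSeq gives (GRCm38.p6). The GENCODE models of Elane, Fcnb and Ngp begin within these bases, and that of Prtn3 begins upstream of them, so that the bases shown for Prtn3 lie inside its GENCODE model. Capitals mark matches, on either strand, to TTGCNNAA, a pattern bound by C/EBP factors, or to GAGGAA, a pattern bound by Ets factors such as PU.1.
Elane promoter, chr10:79886062-79886311, plus strand: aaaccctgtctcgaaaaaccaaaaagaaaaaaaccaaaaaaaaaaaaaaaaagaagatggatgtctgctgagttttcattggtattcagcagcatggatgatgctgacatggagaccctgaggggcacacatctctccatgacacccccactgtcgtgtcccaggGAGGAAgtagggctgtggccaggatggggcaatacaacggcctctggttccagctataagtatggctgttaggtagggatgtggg
Prtn3 promoter, chr10:79879417-79879666, plus strand: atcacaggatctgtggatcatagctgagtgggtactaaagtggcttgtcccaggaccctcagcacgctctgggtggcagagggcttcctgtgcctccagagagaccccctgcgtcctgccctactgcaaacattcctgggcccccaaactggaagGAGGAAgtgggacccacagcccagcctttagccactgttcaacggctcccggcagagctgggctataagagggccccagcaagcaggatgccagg
Fcnb promoter, chr2:28084879-28085128, minus strand: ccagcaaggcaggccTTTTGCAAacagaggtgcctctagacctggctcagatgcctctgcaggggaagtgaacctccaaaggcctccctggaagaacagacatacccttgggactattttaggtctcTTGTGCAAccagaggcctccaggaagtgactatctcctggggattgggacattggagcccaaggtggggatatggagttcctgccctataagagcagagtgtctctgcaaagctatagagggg
Ngp promoter, chr9:110419558-110419807, plus strand: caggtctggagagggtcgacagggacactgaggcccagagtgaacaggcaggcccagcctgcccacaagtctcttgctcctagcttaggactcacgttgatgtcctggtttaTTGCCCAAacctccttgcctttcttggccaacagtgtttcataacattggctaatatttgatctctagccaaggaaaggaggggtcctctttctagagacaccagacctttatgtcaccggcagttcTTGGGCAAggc
Elane and Prtn3 each held a GAGGAA match, which began at -85 and -95 from the start, and no TTGCNNAA match. Fcnb and Ngp each held TTGCNNAA matches, at -235 and -123 and at -138 and -11, and no GAGGAA match. The 5 genes summed in the rule and those of the primary and secondary granule lists make 21 genes. Of these, 17 had a promoter in the table, of which 10 held GAGGAA and 5 TTGCNNAA, beside 23.3% and 9.56% of 32851 tabled mouse promoters. The 4 promoters shown do not stand for the rest, as those of Ltf, Lcn2 and Mmp8 held both patterns and those of Camp, Chil3, Lyz2, Srgn and Ms4a3 held neither. A match is a description of the letters only.

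Cebpe/Fcnb cells were present in each animal. In male mouse 1, 2 and 3 there were 35, 16 and 68, or 7.28%, 2.07% and 4.81% of the cells of each mouse, and in female mouse 4, 5 and 6 there were 10, 9 and 6, or 2.62%, 2.88% and 1.59%. As a share of Cebpe/Fcnb and other S100a8/S100a9-rich cells together, the values were 25.5%, 16.8% and 20.4% in male and 19.6%, 20.5% and 16.2% in female mice, with means of 20.9 ± 4.38% and 18.8 ± 2.24% (SD, n = 3 mice each). With 6 to 68 cells per mouse, each share has a wide counting interval, from 6.19 to 32.0% of S100a8/S100a9-rich cells in mouse 6.

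Cebpe/Fcnb cells held more RNA by UMIs than the other S100a8/S100a9-rich cells. Median UMIs per cell were 18650, 17284.5 and 18126.5 in mouse 1, 2 and 3 against 4800, 3528 and 5637, ratios of 3.88, 4.90 and 3.22, and median genes were 2823 against 1188 over all male cells. In female mice the medians were 14481 and 5091 UMIs. The rule asks for a number of UMIs and so favors deep cells, and no test of depth was made. Thinned to 2000 UMIs each, which left out 31 of the other cells and none of the Cebpe/Fcnb cells, the cells had a median of 630.1 expected genes against 618.7. The Elane/Prtn3 subset stood higher at 842.6 expected genes, with 19291 median UMIs. Mitochondrial genes gave a median of 0.536% of UMIs against 0.249%.

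Cell cycle genes were detected in many Cebpe/Fcnb cells and in few of the other cells. Mki67 (a proliferation marker, chr7:135689784-135716361) had a UMI in 57.1% of Cebpe/Fcnb cells (68 of 119, interval 47.8 to 66.2%) and in 1.12% of the other cells (5 of 446). Top2a, the DNA topoisomerase of dividing cells (chr11:98992943-99024189), had a UMI in 55.5% and 1.35%, and 71 of the 119 cells had a UMI of either. Thinned to 2000 UMIs, Mki67 was expected in 22.3% and 0.207% and Top2a in 36.9% and 0.561%. Lymphocytes (267 cells with at least 3 UMIs of Cd79a and Cd79b or of Cd3e and Cd3g), a population with dividing members of its own, had Mki67 UMIs in 13.9% at a median of 4136 UMIs.

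For each mouse and class the UMIs were summed, and the sums were compared by the quasi-likelihood test of edgeR, with the mouse as a block and p-values adjusted after Benjamini and Hochberg (threshold 0.05). Outside the 7 genes of the rule, 4241 genes were tested, of which 1284 were higher (30.3%) and 1359 lower (32.0%) in Cebpe/Fcnb cells, so that a called gene is common here. The median log2 fold change of all tested genes was -0.04. Genes that vary from cell to cell with the 7 genes had to differ between classes chosen on them, and the counts of a list are to be read beside these shares. Levels are CPM, counts scaled to a common library size, with TMM factors unless stated.

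Of 43 listed S phase genes, 29 passed the filter on low counts, and 28 of these were higher and 0 lower, with a median log2 fold change of 3.21. Of 54 listed G2 and M phase genes, 44 were tested, 43 were higher and 0 lower, and the median was 5.53. With the 5 genes required at 0.1% of UMIs, which keeps 62 of the 119 cells and enlarges the other class to 500, 32 of 32 and 43 of 46 tested genes were higher, but the medians fell to 2.25 and 1.90. Of all tested genes 30.3% were called higher, but a gene absent from the other cells passes the filter only through the Cebpe/Fcnb cells, so that nothing is read from the counts of these lists against that share. Rrm2, the subunit of ribonucleotide reductase that is made in S phase (chr12:24708241-24714146), was at 322, 344 and 264 CPM in mouse 1, 2 and 3 against 0, 0 and 1.86 CPM. The 633 UMIs against 3 give a log2 ratio of 8.10 (95% counting interval 6.55 to 10.4). Top2a was at 520, 310 and 374 CPM against 0, 0 and 3.72, and its 892 UMIs against 6 give a log2 ratio of 7.60 (6.47 to 9.05). No mouse overlapped between classes for either gene.

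Named next are the 10 genes with the largest rise among the 734 that rose in each mouse and reached 50 CPM. Of these, 9 act in DNA replication or cell division and the other is Mpo. All 10 had 0 to 6 UMIs in the other cells and so pass the filter through the Cebpe/Fcnb cells. Nothing is read from the make-up of this choice. Pbk, a mitotic kinase, had 135 UMIs in Cebpe/Fcnb cells and 0 in the others, at least 58.7-fold higher against a floor of 3 UMIs over the class. Esco2, which acetylates cohesin, had 127 and 0 (at least 55.2-fold), and Nuf2, of the kinetochore, 96 and 0 (at least 41.7-fold). Cdk1, the mitotic cyclin-dependent kinase, had 426 UMIs against 2, Cenpf 244 against 1, Nusap1 519 against 3 and Cdca3 195 against 1. Their log2 ratios were 8.12 (6.26 to 11.2), 8.31 (5.82 to 13.6), 7.82 (6.26 to 10.1) and 7.99 (5.5 to 13.3), with 95% counting intervals. Other abundant members rose less. Hmgb2, a chromatin protein that non-dividing cells also make, rose by a log2 fold change of 1.12 ± 0.12 (SE, as for all fold changes from edgeR, adjusted p = 6.50e-07), Slbp, which binds histone mRNA, by 1.52, and Cks2 by 0.80. Rfc2, a clamp loader subunit, did not pass the test (0.31 ± 0.23, adjusted p = 0.24).

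Cell cycle genes were uneven among the Cebpe/Fcnb cells. Summed per mouse, S phase genes gave 0.228%, 0.198% and 0.193% of UMIs against 0.0182%, 0.0219% and 0.0212%, and G2 and M phase genes 1.10%, 0.979% and 0.871% against 0.248%, 0.256% and 0.242%. Within the class, 58 of 119 cells had a higher S phase share than any of the 446 other cells, and 53 had a higher G2 and M phase share. In the Elane/Prtn3 subset these were 17 and 9 of 19 cells, and in the remaining 100 cells 41 and 44. The G2 and M phase share thus spread from 0.139% to 2.04% in the 100 cells, with many cells at the level of the other class and many well above it. Across the 119 cells, the share of S phase genes had a Spearman's rho of 0.52 with the share of the 5 rule genes and of 0.42 with total UMIs, and the G2 and M phase share of 0.23 and 0.72. These are descriptions over cells that share a lane and a total in both terms.

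**Figure D2:**
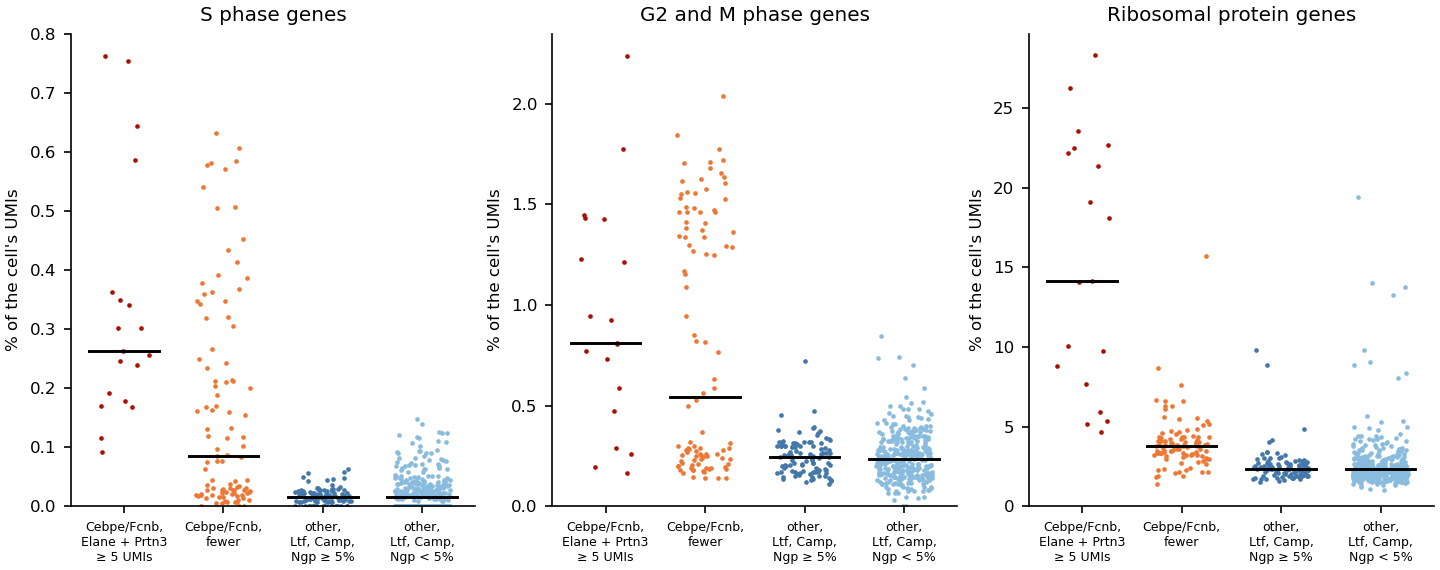
Share of S phase, G2 and M phase and ribosomal protein genes in the UMIs of each male cell (points) with the median (bar), for the 19 cells of the Elane/Prtn3 subset, the other 100 Cebpe/Fcnb cells, and the 102 and 344 other S100a8/S100a9-rich cells with Ltf, Camp and Ngp at or above and below 5% of UMIs. G2 and M phase shares of the 100 cells form a low and a high band, and ribosomal shares are highest in the Elane/Prtn3 subset (median 14.2%).

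Of the primary granule genes outside the rule, the protease and peroxidase genes Ctsg and Mpo lay in few cells. Of 7 listed genes, 7 were tested, 5 were higher and 2 lower, beside 30.3% and 32.0% of all tested genes, with a median log2 fold change of 1.26. In male mice the summed list gave the opposite direction. It was at 0.241%, 0.262% and 0.239% of UMIs in mouse 1, 2 and 3 against 0.317%, 0.382% and 0.335%. Srgn, which was lower, was its most abundant member in the other cells. In female mouse 4, 5 and 6 the list was at 0.418%, 0.227% and 0.436% against 0.302%, 0.309% and 0.239%, higher in mouse 4 and 6. Other male cells were at 0.164% (the 102 with Ltf, Camp and Ngp at 5% or more) and 0.454% (the remaining 344). Mpo, which encodes myeloperoxidase (chr11:87793581-87804413), was at 252, 436 and 253 CPM in mouse 1, 2 and 3 against 1.97, 0 and 1.24. Its 597 UMIs against 3 give a log2 ratio of 8.02 (6.47 to 10.3), and no mouse overlapped. Of these UMIs, 596 lay in the Elane/Prtn3 subset, where Mpo was detected in 52.6% of the 19 cells, and 1 in the other 100 cells. Ctsg, which encodes cathepsin G (chr14:56099881-56102574), was at 139, 168 and 122 CPM against 1.97, 0 and 1.86. Its 289 UMIs against 4 give a log2 ratio of 6.56 (5.19 to 8.44), and 281 of the 289 lay in the subset. Mpo and Ctsg pass the filter on low counts through the Cebpe/Fcnb cells, so that their tests are not read. Prss57, a further granule protease named after its value was seen, had a log2 fold change of 4.88 ± 0.51. It had 57 UMIs in the subset, 33 in the other 100 cells, and 2 and 1 in the 102 and 344 other S100a8/S100a9-rich cells. It passes the filter in the same way, so that its test is not read either. Nothing is therefore read from the count of higher genes in this list beside the share of all tested genes.

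Members of the list that are used beyond primary granules went both ways. Serpinb1a, an inhibitor of the granule proteases, was at 977, 856 and 868 CPM against 301.6, 426.2 and 406.7 (log2 fold change 1.26 ± 0.16, adjusted p = 2.78e-06), and Cd63, a granule membrane protein, rose by 0.66. Srgn, the proteoglycan core that packs granule proteins, was lower, at 500, 585 and 615 CPM against 2937, 3147 and 3007 (-2.42 ± 0.13, adjusted p = 2.52e-10). Its fall was smaller in female mice (-0.98, adjusted p = 0.0046) and against the other cells nearest in granule genes, described below (-0.37, adjusted p = 0.039). Ctsc, the protease that activates the granule proteases, was lower by a log2 fold change of -1.04 (adjusted p = 0.0032), a call that was lost without the cells Scrublet marked (-0.17, adjusted p = 0.64).

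Secondary granule genes were split. Of 9 tested, 5 were higher, 2 lower and 2 not called, beside 30.3% and 32.0% of all tested genes, with a median of 0.35. The list gave 15.6 ± 1.25% of UMIs in Cebpe/Fcnb cells against 7.55 ± 0.436% (SD, n = 3 mice), but the other class was mixed. Over the 102 other cells with Ltf, Camp and Ngp at 5% or more, which these members of the list chose, it gave 13.3%. The remaining 344 had 3.44%, so that the list was not particular to Cebpe/Fcnb cells. Camp, which encodes the antimicrobial peptide cathelicidin (chr9:109847379-109849617), was at 52199, 53763 and 44397 CPM in mouse 1, 2 and 3 against 15965, 19424 and 16899 (log2 fold change 1.52 ± 0.10, adjusted p = 1.65e-09). Ngp, neutrophilic granule protein (chr9:110419747-110423012), was at 63647, 60693 and 52798 CPM against 26760, 25804 and 25015 (1.19 ± 0.09, adjusted p = 1.29e-08). The classes did not overlap for either gene. Chil3, a chitinase-like lectin of myeloid cells (chr3:106147554-106167564), was at 4608, 4385 and 4173 CPM against 611, 725 and 753 (2.66 ± 0.14, adjusted p = 1.22e-10). UMIs of these genes were also found in lymphocytes, which should lack them, as 36.3% had a Camp UMI and 46.8% an Ngp UMI at a median of 4136 UMIs, against 94.96% and 98.3% of Cebpe/Fcnb cells at 18136. Thinned to 2000 UMIs, these were 17.3% and 24.7% against 91.7% and 93.0%.

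Ltf and Lcn2 were higher by less. Ltf, which encodes lactoferrin (chr9:111019271-111042767), was at 10405, 9067 and 8367 CPM against 7058, 7352 and 6008 (log2 fold change 0.45 ± 0.11, adjusted p = 0.0020), and Lcn2, the iron-siderophore binding lipocalin, at 14187, 12500 and 13512 against 10496, 9825 and 11295 (0.35 ± 0.10, adjusted p = 0.0082). Neither kept this direction with the 5 genes taken at 0.1% of UMIs or against the other cells nearest in granule genes (below), and with 10 UMIs of the 5 genes required both calls were lost (Ltf 0.17, adjusted p = 0.14; Lcn2 0.14, adjusted p = 0.20). Lcn2 also lost its call without mouse 2 (adjusted p = 0.17) and with all 6 mice (adjusted p = 0.099). Lyz2, lysozyme, did not pass the test (-0.01). The remaining members were named after their values were seen. Mmp8, neutrophil collagenase (chr9:7558456-7568485), was lower, at 245, 99.4 and 433 CPM against 3136, 2797 and 3013 (-3.59 ± 0.24, adjusted p = 2.50e-09), Hp, haptoglobin, was lower at -0.78, and Cd177, a surface partner of proteinase 3, did not pass the test (-0.22).

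**Figure D3:**
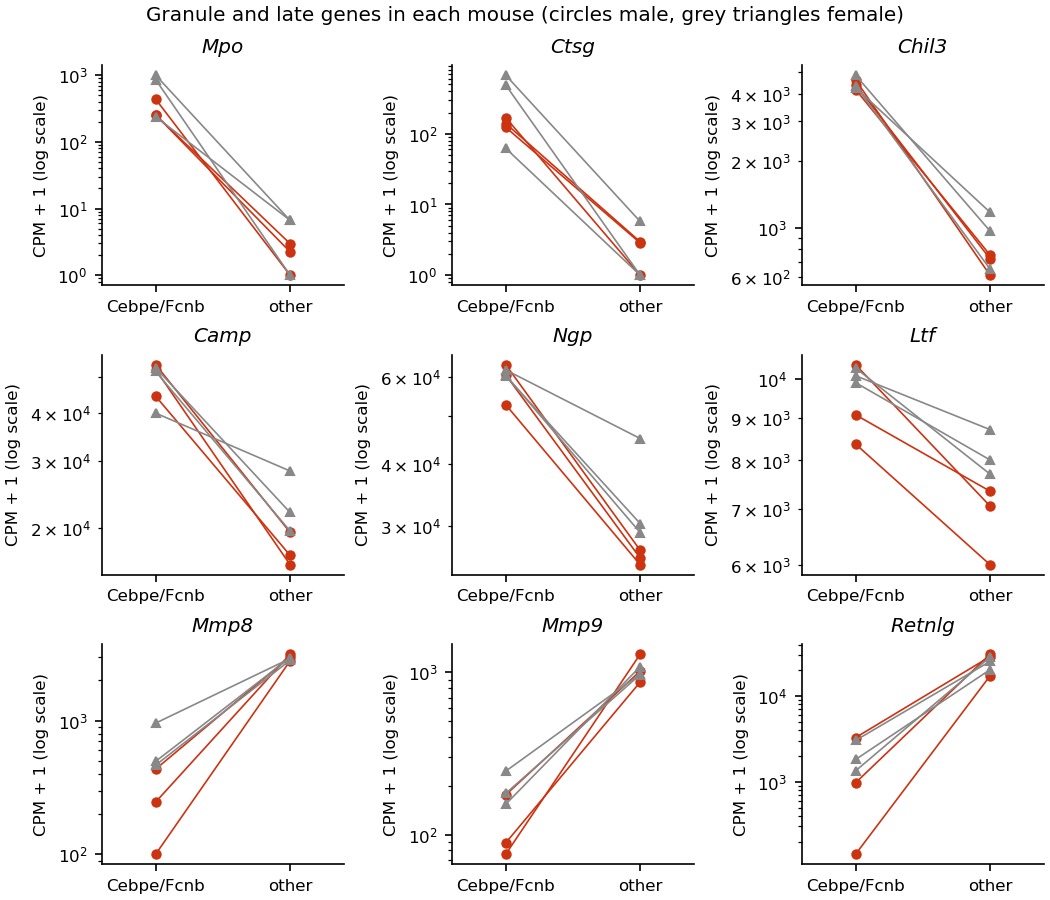
Level of 9 granule and late genes in each mouse (CPM plus 1, log scale, axes differ between panels), with lines joining the Cebpe/Fcnb and the other S100a8/S100a9-rich cells of a mouse (red circles, 3 male; grey triangles, 3 female). Mpo, Ctsg, Chil3, Camp, Ngp and Ltf slope down from Cebpe/Fcnb cells and Mmp8, Mmp9 and Retnlg slope up, in all 6 mice.

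The 4 gelatinase granule genes were tested and 4 were lower, beside 32.0% of all tested genes, with Mmp9, gelatinase B (chr2:164940780-164955850), at 74.7, 87.9 and 175 CPM against 1293, 870 and 1017 (log2 fold change -3.23 ± 0.23, adjusted p = 4.30e-09). Adam8, a metalloprotease, was lower at -3.36, Slc11a1, a metal transporter, at -3.48, and Mmp25, a membrane-bound metalloprotease, at -1.62. The call of Mmp25 was lost with DESeq2 (adjusted p = 0.052). Of 29 late neutrophil genes, 29 were tested and 29 were lower, beside 32.0% of all genes, with a median of -3.30. As with the cell cycle lists, a gene nearly absent from one class passes the filter through the other, and nothing is read from these counts against that share. Retnlg, a resistin-like secreted protein (chr16:48872621-48874496), was at 973, 141 and 3280 CPM against 30898, 17239 and 28952 (-4.83 ± 0.43, adjusted p = 6.55e-08). Cxcl2, a chemokine that attracts neutrophils, was at 198, 111 and 385 CPM against 3806, 4737 and 5547 (-4.38 ± 0.21), and Ccrl2, a chemokine-binding receptor, at 32.0, 61.2 and 108 against 1088, 1697 and 1460 (-4.36 ± 0.22). G0s2, a lipase inhibitor, and Msrb1, a methionine sulfoxide reductase, were lower at -2.31 and -2.09. Mouse 3 had the highest level in Cebpe/Fcnb cells for each gelatinase granule gene and for Retnlg, Cxcl2 and Ccrl2, and the classes did not overlap.

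The 10 genes with the largest fall, of 942 that fell in each mouse and reached 50 CPM, were of varied kinds. Genes nearly absent from Cebpe/Fcnb cells, such as Ptgs2 and Gm13822, pass the filter through the other cells. Nothing is read from the make-up of this choice either. Ptgs2, cyclooxygenase 2, had 1 UMI against 127 (log2 ratio -6.61, interval -11.9 to -4.10), and Gm13822, an antisense transcript, 2 against 145 (-5.80, -8.86 to -3.92). Asprv1, an aspartic protease, was at 0, 0 and 9.54 CPM against 272, 86.8 and 394 (log2 fold change -5.87 ± 0.34), and Acod1, the itaconate-making enzyme, at 1.52, 0 and 9.54 against 193, 350 and 267 (-5.43 ± 0.32). Jaml, an adhesion molecule (-5.60), Ccl6, a chemokine (-5.31), Rtp4, an interferon-induced chaperone (-5.01), and Cyp4f18, which inactivates leukotriene B4 (-4.89), were also lower. Stfa2l1 (-5.03) and Gm5483 (-4.96) belong to the stefin A family of near-identical copies, so their counts are uncertain. Apart from Rtp4, the levels of these genes in Cebpe/Fcnb cells were mostly from mouse 3.

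**Figure D4:**
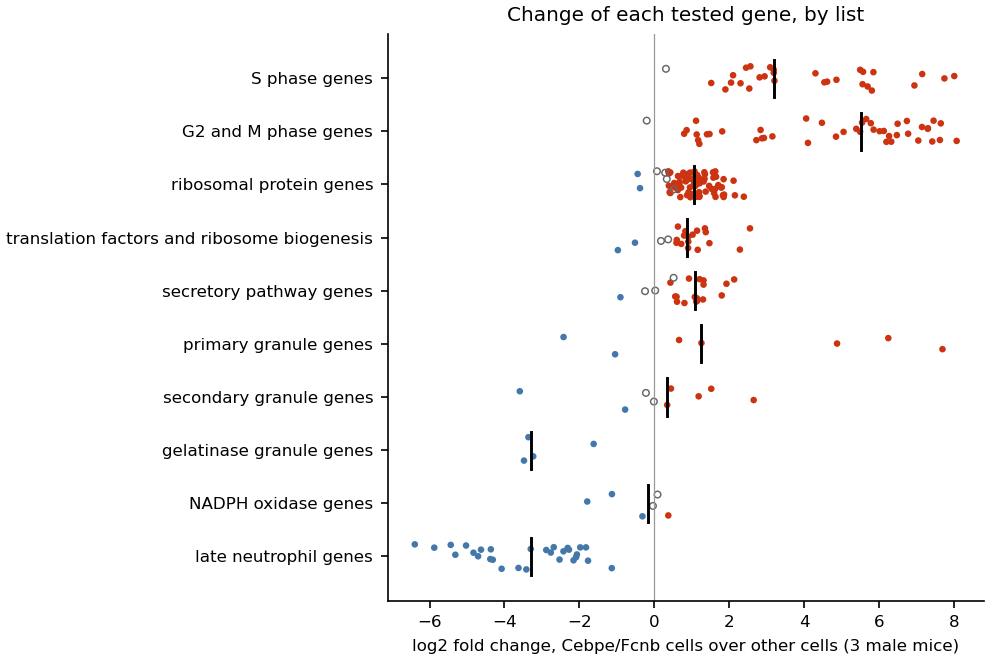
Log2 fold change of each tested gene (points) between Cebpe/Fcnb cells and other S100a8/S100a9-rich cells in 3 male mice, by gene list, with the list median (bar). Filled red and blue points passed the test as higher and lower and open points did not; the cell cycle lists lie to the right (medians 3.21 and 5.53) and the late neutrophil list to the left (-3.30).

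Genes of translation and secretion were higher by a smaller factor. Of 81 ribosomal protein genes tested, 75 were higher, 2 lower and 4 not called, beside 30.3% and 32.0% of all tested genes, with a median log2 fold change of 1.07, and together they gave 5.94%, 5.27% and 5.84% of UMIs in mouse 1, 2 and 3 against 2.33%, 3.11% and 3.01%. Rps24 was at 2014, 1445 and 1758 CPM against 615, 791 and 945 (1.16 ± 0.16, adjusted p = 9.73e-06). Rps9 was at 1273, 1078 and 1284 CPM against 1589, 1465 and 1669 (-0.38 ± 0.12, adjusted p = 0.014), a call lost without mouse 2 or 3 (adjusted p = 0.097 and 0.076). Some ribosomal protein genes have near-identical processed pseudogenes, so single members are uncertain. The share was 13.8% over the Elane/Prtn3 subset, 4.12% over the other 100 cells and, over the other S100a8/S100a9-rich cells, 2.70% and 3.02% in those with Ltf, Camp and Ngp at or above and below 5%.

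Of 22 tested genes of translation factors and ribosome biogenesis, 18 were higher and 2 lower, beside the same shares (median 0.87). Eef1a1, the elongation factor that delivers tRNA, rose by 0.60 ± 0.15 and Eif5a by 0.84 ± 0.14. Eif1, an initiation factor, was lower (-0.51 ± 0.12, adjusted p = 0.0018), as was Eif4ebp1, the inhibitor of cap-dependent initiation (-0.97 ± 0.17, named after its value was seen). Of 21 secretory pathway genes, which fold and translocate proteins in the endoplasmic reticulum, 17 were higher and 1 lower, again beside 30.3% and 32.0% (median 1.08). The list gave 0.596% of UMIs in the Elane/Prtn3 subset and 0.167% in the other 100 cells. In the other S100a8/S100a9-rich cells with Ltf, Camp and Ngp at or above and below 5% it gave 0.121% and 0.136%. The 19 cells thus stood highest among these groups. Hsp90b1, an endoplasmic reticulum chaperone (chr10:86690209-86705509), was at 192, 317 and 235 CPM against 45.3, 97.0 and 71.3 (1.80 ± 0.17, adjusted p = 1.12e-07), and Sec61g, of the translocation channel, rose by 1.21 ± 0.15. Hspa5, the chaperone BiP, did not pass the test (-0.24 ± 0.15, adjusted p = 0.18).

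Transcription factor genes were mostly lower. Of 20 listed, 13 were tested, 2 were higher, 8 lower and 3 not called, beside 30.3% of all tested genes higher and 32.0% lower. Gfi1, a repressor needed for neutrophil commitment (chr5:107716657-107726036), was at 22.9, 19.1 and 17.5 CPM against 1.97, 5.10 and 1.86 (log2 fold change 2.90 ± 0.55). Myb, which keeps progenitors dividing, was at 36.6, 38.2 and 27.0 against 9.86, 5.10 and 11.2 (1.66 ± 0.37). No mouse overlapped for either gene. These are the 2 genes called higher, and both pass the filter on low counts through the Cebpe/Fcnb cells, so that their tests are not read. In unscaled CPM, Gfi1 was at 40.1 in the Elane/Prtn3 subset and 15.3 in the other 100 cells, and Myb at 72.2 and 23.2. In the 102 other cells with Ltf, Camp and Ngp at 5% or more they were at 3.59 and 14.4. Cebpb, the C/EBP factor of mature myeloid cells, was at 413, 413 and 706 CPM against 3315, 2881 and 3759 (-2.73 ± 0.15, adjusted p = 2.15e-10). Junb (-3.07), Fos (-2.15), Bcl6 (-2.09), Klf2 (-1.59), Klf6 (-1.29), Spi1, which encodes PU.1 (-1.05), and Nfil3 (-0.97) were lower, and Cebpd (-0.02), Lmo4 (0.00) and Runx1 (0.22) did not pass the test.

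Among genes of the NADPH oxidase, Cybb, its catalytic subunit, was at 1054, 1036 and 964 CPM against 650, 949 and 781 (log2 fold change 0.38 ± 0.14, adjusted p = 0.029). The cytosolic subunit Ncf1 was lower (-1.13), as was Rac2 (-0.31, adjusted p = 0.045), and Cyba and Ncf4 did not pass the test (0.09 and -0.03). Neither the call of Cybb nor that of Rac2 was firm. Cybb lost it without mouse 1 or 2 (adjusted p = 0.15 and 0.056), with DESeq2 (0.11) and with 10 UMIs of the 5 genes required (0.19). Rac2 lost it without mouse 1 or 3 (adjusted p = 0.32 and 0.24), with DESeq2 (0.23) and with both other sets of library sizes (0.10 and 0.16). Of 9 surface genes tested, 7 were lower and 0 higher, beside 32.0% and 30.3% of all tested genes. Ly6g, the neutrophil surface marker, was at 1104, 1403 and 1448 CPM against 2685, 1986 and 2379 (-0.84 ± 0.15, adjusted p = 1.09e-04), and Cxcr4, the marrow retention receptor, at 91.5, 99.4 and 73.1 against 181, 186 and 135 (-0.92 ± 0.17). Cd24a (-0.83), Itgam (-0.82), Itgb2 (-0.73) and Ly6c2 (-0.59) were the other named members. Ly6c2 lost its call without mouse 1 or 2 (adjusted p = 0.11 and 0.081) and with DESeq2 (0.084). Without the cells that held 3 UMIs of macrophage, B or T cell genes, Ly6g, Itgam and Ly6c2 were no longer called (-0.35, -0.27 and -0.21). T cell genes alone left out 64 of the 119 and 165 of the 446 cells, almost wholly by Cd3d, which both classes carried at higher levels than the remaining cells (184 and 383 against 15.8 unscaled CPM).

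The Elane/Prtn3 subset and the other 100 Cebpe/Fcnb cells differed in the granule genes they carried. These values are unscaled CPM and are given without a test, since Elane and Prtn3 divided the cells. Ltf was at 2242, 4654 and 3117 CPM in the subset and at 11520, 10480 and 9860 CPM in the other cells (mouse 1, 2 and 3). Lcn2 was at 5452, 5327 and 4042 against 15460, 14730 and 16190, and Ly6g at 136, 56.1 and 145 against 1232, 1796 and 1811. The subset was lower than the other cells for these 3 genes in each mouse. The whole secondary granule list gave 7.96%, 12.3% and 8.70% of its UMIs against 17.4%, 16.9% and 15.6%. Its Camp level was closer, above all in mouse 2, at 30250, 52840 and 32320 CPM against 55850, 55450 and 48130. Its genes of the secretory pathway gave 0.654%, 0.686% and 0.565% of UMIs against 0.166%, 0.205% and 0.159%. Fcnb was at 1868, 1682 and 1036 CPM against 539, 469 and 308, while Cebpe was at 781, 561 and 428 against 559, 597 and 596. S100a8 and S100a9 gave 20.2% of UMIs in the subset and 35.6% in the other cells. With 3 and 4 cells in mouse 1 and 2, the subset's levels there rest on few cells.

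The threshold of 5 UMIs cut through cells of similar levels. The 16 members with 5 or 6 UMIs of the 5 genes had S phase genes at 0.0233% of UMIs, G2 and M phase genes at 0.236%, Mki67 in 6.25% of cells and late neutrophil genes at 1.85%. The 28 cells just outside, with 3 or 4 UMIs, had 0.0159%, 0.284%, 3.57% and 1.63%, so that cells on both sides were alike in these measures. The 90 members with at least 10 UMIs had 0.242%, 1.10% and late genes at 0.340%. Cells near the limit carried much of the class's late transcripts, as the 16 cells held 368 of the 732 Mmp8 UMIs and 2265 of the 4801 Retnlg UMIs. Unscaled levels were 1785 CPM of Mmp8 and 10990 CPM of Retnlg in the 16 cells, and 104 and 1031 CPM in the 90 cells. Of the 119 cells, 57 had less than 0.1% of their UMIs in the 5 genes. On the side of S100a8 and S100a9, 35 cells had 5 UMIs or more but less than 1% of S100a8 and S100a9. These carried Ccr2 (88.6% of cells) and Irf8 (85.7%), genes of the monocyte and dendritic lineage, with Mpo in 54.3% and Cd34 in 34.3%. The basophil protease gene Prss34 had a UMI in 5.71% of them and Mki67 in 57.1%. Ribosomal protein genes gave 21.6% of their UMIs, S phase genes 0.370%, G2 and M phase genes 0.936% and secretory pathway genes 0.745%. Ccr2 and Irf8 had UMIs in 21.1% and 26.3% of the Elane/Prtn3 subset and in 3.00% and 2.00% of the other 100 cells. In the subset both came from mouse 3 alone, at 122 and 103 unscaled CPM, and were at 0 in mouse 1 and 2.

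A comparison with the most similar other cells was added after the data had been seen. It took only the 102 other S100a8/S100a9-rich cells with at least 5% of UMIs in Ltf, Camp and Ngp, which were deeper (median 10705.5 UMIs) than the other 344 (4247). Of 3330 genes tested, 792 were higher (23.8%) and 679 lower (20.4%) in Cebpe/Fcnb cells by the same edgeR test. Of 25 S phase genes, 24 were higher, of 42 G2 and M phase genes 41, and of 81 ribosomal protein genes 74, with medians of 3.57, 5.29 and 0.935. The cell cycle genes pass the filter here too through the Cebpe/Fcnb cells, as Mki67, Top2a and Rrm2 had 1 UMI each in the 102 cells, and nothing is read from their counts. Of 23 late neutrophil genes, 23 were lower (median -1.64). Chil3 stayed higher (1.42, adjusted p = 1.25e-09) and Mmp8 was at 2461 unscaled CPM in the 102 cells. Lcn2 turned to -0.42 (adjusted p = 6.96e-04) and Cybb to -0.49 (adjusted p = 0.0026). Ltf, Camp and Ngp chose these cells and were not read as results, at -0.74, 0.34 and 0.02. Of 11 transcription factor genes tested, 0 were higher and 7 lower. The secretory pathway list had 12 of 21 genes higher and 1 lower, and the secondary granule list, which holds the 3 genes that chose these cells, 2 of 9 higher and 6 lower. Among named genes, Cxcr4 (-0.13), Eif1 (-0.28), Serpinb1a (0.33), Ctsc (-0.34), Rps9 (-0.28), Sec61b (0.34) and Gm5483 (-1.11) were no longer called.

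In the female mice, whose cells the rule was not written on, 1691 genes were tested, of which 458 were higher (27.1%) and 440 lower (26.0%). The 25 cells gave fewer UMIs (416740 in all against 2142253 in male mice), and 3 S phase genes passed the filter on low counts, of which 3 were higher. Of 17 G2 and M phase genes tested, 15 were higher, of 79 ribosomal protein genes 77, and of 24 late neutrophil genes 24 were lower, with medians of 4.09, 1.60 and -2.98. As in male mice, a gene nearly absent from either class passes the filter through the other. Nothing is read from these cell cycle and late neutrophil counts. Camp rose by 1.06 (adjusted p = 2.65e-05) and Chil3 by 2.30 (adjusted p = 9.75e-09), and Ltf and Lcn2 did not pass the test (0.31 and 0.00). Mpo rose by 7.34, but it passes the filter through the Cebpe/Fcnb cells, so that its test is not read. Of 516 genes called higher in male mice and tested in female mice, 512 had the same sign and 411 were called, which is 79.7% of the male and 89.9% of the female calls. Of 704 called lower, 681 had the same sign and 427 were called (60.7% and 97.0%). Smim4, named after its values were seen, was called in opposite directions (-0.47 and 1.05). In a test of the difference between sexes over 2109 genes, edgeR called 0 genes at an adjusted p of 0.05 (smallest 0.451) and 120 had an unadjusted p below 0.05. The animals share no sample, but all cells share a lane and its free RNA.

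**Figure D5:**
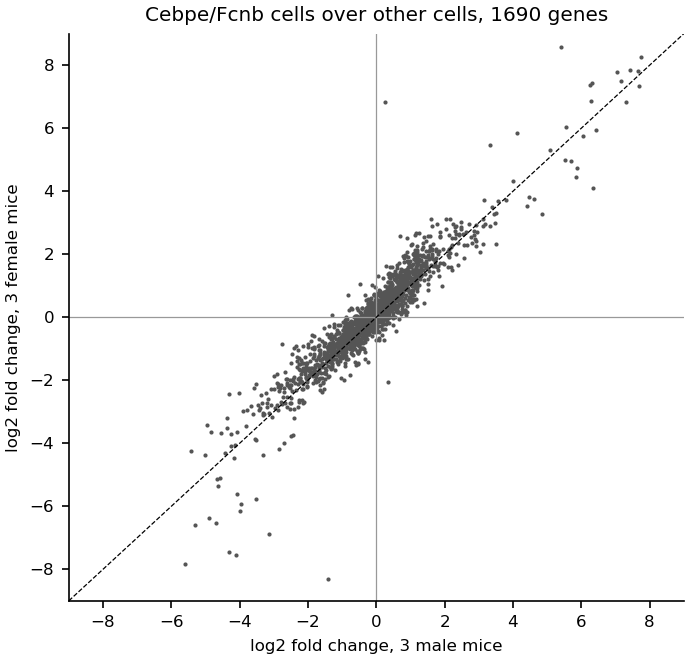
Log2 fold change of 1690 genes tested in both sexes between Cebpe/Fcnb cells and other S100a8/S100a9-rich cells, in 3 male (x axis) and 3 female mice (y axis), with the dashed line of equal values. Most points lie near the line and 1 gene called in both sexes lies in opposite quadrants.

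Markers of other cell types were checked on unscaled CPM of the whole list. The 8 macrophage genes summed to 297, 316 and 324 CPM in Cebpe/Fcnb cells of mouse 1, 2 and 3 and to 684, 1925 and 1933 CPM in the other S100a8/S100a9-rich cells, with Apoe the most abundant and none of 8 at 0. Apoe was at 28130 CPM in the remaining cells of the male mice. C1qa, C1qb and C1qc, of the complement starter, were lower in Cebpe/Fcnb cells (-2.75, -2.45 and -2.65), as was Csf1r (-2.22), a gene of the monocyte list. The 7 monocyte genes summed to 21.9, 42.95 and 240 CPM against 53.1, 229 and 233, and Ccr2 had 59 UMIs in 7 of the cells. Of 3 monocyte genes tested, Csf1r alone was called, and Ms4a6c (0.39) and Ccr2 (-0.04) were not. F13a1, not tested, was at 36.9 against 17.5 CPM. The part of these cells in the results was not tested. Of the T cell genes, Trac, Trbc2 and Cd3e had 0 UMIs, and Cd3d was at 160, 164 and 195 scaled CPM against 420, 393 and 436 (-1.26). Cd3d was also higher in both classes (184 and 383 unscaled CPM) than in the remaining cells (15.8).

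The 5 B cell genes summed to 25, 15.6 and 35.3 CPM, with Ighm the most abundant and none at 0. Early progenitor genes were near 0, with 6 UMIs of Kit and 0 of Cd34, Flt3, Meis1 and Mecom, and so were basophil and mast cell genes (Mcpt8 3 UMIs, Prss34 and Fcer1a 0). Eosinophil genes had 6 UMIs, all of Siglecf. Erythroid genes had 9 UMIs in all, 6 of them Hbb-bs, and the platelet, glial and fibroblast lists summed to at most 3.12, 21.9 and 11.7 CPM in any male mouse, led by Gp9, Mbp and Dcn. Scrublet, a doublet caller, marked 10 of 3741 cells, 0 of them Cebpe/Fcnb cells and 5 of them other S100a8/S100a9-rich cells, too few to serve as a filter, and doublets of cells with different hashtags had been removed.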

How the data were processed

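Per the labels, RNA and hashtag libraries of 1 lane of sorted CD45+ cells of 6 mice were sequenced and processed with Cell Ranger 3.1.0 (mm10) and Seurat. The authors deposited whole-number UMI counts per gene and cell, not normalized, for all barcodes and for the male cells they kept. The counts of both matrices did not differ for any shared barcode. No columns of other samples were found. Here the larger matrix was assigned to mice by HTODemux (Seurat 5.3.0, quantile 0.99) and filtered at over 200 and under 5000 genes and under 5% mitochondrial UMIs, which returned the deposited male cells and 1073 female cells. Male cells summed to 23403638 and female cells to 7964428 UMIs, and the sums per mouse and class in male mice to between 256131 and 1827710.

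UMIs were summed per mouse and class and tested with edgeR 4.0.16 (quasi-likelihood, TMM factors, filterByExpr, mouse as block, Benjamini-Hochberg adjusted p below 0.05). Both classes came from the same animals, which pairs the sums by design. The correlation of their deviations was low, at 0.078, 0.035 and 0.063 for mouse 1, 2 and 3. Between sums of different mice it ran from -0.0495 to -0.003. The 7 genes of the rule stayed in the fit but out of counts and calls. P-values set the class difference within mice against its spread over 3 mice per sex, with dispersions moderated across genes. The SE of a fold change was taken as its size divided by the square root of the F statistic. Tested on simulated male sums of 4023 genes, the fit called 56% of the genes set to a log2 fold change of 1, 88% of the genes set to 2, and 2 genes left alone. The simulation used a common dispersion for all genes, no mouse effect and 200 changed genes, far fewer than were called here. It therefore gives no rate of false calls for the real comparison. Thinned values are expectations under random draws of 2000 UMIs per cell. Named genes were in each direction the 10 called genes of largest fold that had 1 sign in all male mice and at least 50 CPM in the higher class, up to 6 most abundant tested members of each list, and the transcription factors and other markers. The members and lists were chosen with earlier results of these data known. Alternatives were another normalization and tool (DESeq2 1.42.0), no filter, no block, each mouse left out, other rule limits, and cells left out.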

Additional observations from a re-analysis of the deposited data

Results flagged for a closer look

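Barcodes that no comparison used also met the rule for Cebpe/Fcnb cells. Of 269 barcodes that HTODemux called doublets, 31 did (11.5%, 95% exact interval 7.97 to 16.0%), at a median of 22086 UMIs, against 4.46% of male singlets at a median of 18136. The doublets were called over the hashtags of both sexes, and of female singlets 2.33% met the rule, at a median of 14481. Of 101 barcodes without a hashtag call, 3 did (2.97%). Of 284 barcodes that failed the filters on genes and mitochondrial UMIs, 0 did, which allows a share of up to 1.06% (3 counts of the total; exact upper limit 1.29%). The intervals cover counting error only, and the source of the 31 barcodes was not tested.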

How the results depend on the processing

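Of 163 values of the main results under the alternatives, 138 stayed within 1.5 times the main count or within the spread between mice, and of 1395 pairs of a named gene and an alternative, 1321 kept their direction and side of the threshold, 45 lost and 22 gained a call, and 7 reversed. Higher and lower calls, 1284 and 1359, were 890 and 865 with DESeq2, 1909 and 1589 without the filter on low counts, 792 and 679 against the other cells with Ltf, Camp and Ngp at 5% or more, and 795 and 774 with all 6 mice (the last 2 alternatives chosen after seeing the data). Lower calls were 901 without cells holding 3 UMIs of macrophage, B or T cell genes, which took out 64 of 119 Cebpe/Fcnb cells and 165 of 446 others by T cell genes alone, almost wholly Cd3d, a gene at 184 and 383 CPM in these classes and 15.8 CPM in the remaining cells. In female mice DESeq2 called 254 higher and 232 lower, and 693 were lower without the filter. S phase genes called higher numbered 13 with the same cells left out and 9 with all 6 mice, and G2 and M phase genes 23 with all 6 mice, where fewer were tested. Without the mouse as a replicate block, 1294 were higher and 1352 lower in male mice, and 458 and 436 in female mice. Leaving out a mouse gave 1084 to 1400 higher and 1020 to 1416 lower calls (female 345 to 455 and 339 to 443), 26 to 38 S phase, 42 to 47 G2 and M phase and 69 to 72 ribosomal protein genes higher, and 28 to 29 late genes lower.

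With 10 UMIs of the 5 genes required (90 cells), or 0.1% of UMIs (65 cells, 62 of them shared), the mean share of Cebpe/Fcnb cells was 16.01% and 12.24%, of cells with Mki67 75.44% and 67.24% (58.97% in the main analysis), of S phase UMIs 0.2414% and 0.2475%, and of ribosomal protein UMIs 6.157% and 7.024%. G2 and M phase UMIs were 1.129% at 10 UMIs. Thinned to 2000 and 1000 UMIs, Mki67 was expected in 23.59% and 13.63% of cells, and G2 and M phase genes gave 0.8556% at both, with cells weighted equally. Leaving out a mouse gave means of 18.63 to 22.98% (share), 3.551 to 4.392 (ratio of median UMIs), 57.21 to 61.25% (Mki67), 0.1956 to 0.2129% (S phase), 0.9248 to 1.04% (G2 and M phase), 5.554 to 5.888% (ribosomal) and 15.08 to 16.28% (secondary granule). The log2 fold changes of Lcn2, Ltf and Lmo4 were -0.02, -0.016 and -0.29 at 0.1% of UMIs, those of Lcn2, Ltf and Cybb -0.418, -0.738 and -0.495 against the other cells with Ltf, Camp and Ngp at 5% or more, and that of Lyz2 0.444 without the cells left out by macrophage, B and T cell genes. The median of the G2 and M phase genes was 1.90 at 0.1% of UMIs against 5.53, and of the S phase genes 2.25 against 3.21. The causes were not tested.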
